A study of Mus musculus with 10 samples.

Results

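Mitf and 5 genes known from pigment cells, Tfec, Tyr, Tyrp1, Dct and Pmel, were followed in the main olfactory epithelium (MOE), the part of the nose that senses odors. The 6 genes were found by symbol among the 19938 genes that a probe set of the array names alone, and they were read by 7 probe sets, 2 of them for Mitf. The set was chosen by the measured H2be-GF against WT difference of Mitf, whose brighter probe set had already been called in these data. That difference between genotypes is therefore given as a description, and the other genes were added for their known roles. The arrays came from 5-week old mice, 4 from H2be-GF animals and 6 from wild type (WT) animals. H2be-GF mice carry a transgene in which the promoter of Omp, the gene of olfactory marker protein, drives a FLAG-tagged H2BE, a variant of histone H2B, in mature olfactory neurons. H2be-GF is a single founder line crossed to C57Bl/6, and its transgene stays silent in a band of neurons near zone 2. RNA was extracted from freshly dissected whole tissue and pooled from several animals for each array, and the H2be-GF pools held more animals than those of WT. A p-value here reflects only how far these pools differ among themselves.

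Mitf is a basic helix-loop-helix leucine zipper factor that governs the pigment cell lineage, and it also acts in osteoclasts, mast cells and the retinal pigment epithelium. It binds E-boxes as a dimer with itself or with its relatives Tfe3, Tfeb and Tfec. In melanocytes its well-known targets are Tyr, Tyrp1 and Dct, whose enzymes make melanin in successive steps, and Pmel, whose protein forms the fibrils on which melanin is laid down. The question put to the arrays was whether these genes follow Mitf in H2be-GF tissue.

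The sequences that link Mitf with the pigment genes are shown first, because they are the sites through which the enzymes are known to be driven in melanocytes. RefSeq promoters (GRCm38.p6, 250 bases before to 50 after each start) were at hand for 5 of the 6 genes, with 3 starts for Mitf, and Pmel was not among them. The core of the M-box, an E-box that Mitf prefers, was searched as CATGTG on both strands, and its longer form as AGTCATGTG, which contains the core. Each line below is a 30-base window that ends before the transcript start, read 5′ to 3′ on the strand of the gene, with the searched letters in capitals.
Tyr, chr7:87493517-87493546, minus strand: agaaaaagttAGTCATGTGctttgcagaag
Tyrp1, chr4:80834154-80834183, plus strand: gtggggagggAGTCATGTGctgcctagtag
Dct, chr14:118052379-118052408, minus strand: tgcacttagggtCATGTGctaacaaagagg
Dct, chr14:118052461-118052490, minus strand: gcttggctgggaCACATGagcccaataaag
The longer M-box began 24 bases before the start of Tyr and 49 bases before that of Tyrp1, and 0.274% of all 32851 promoters of this length held it on either strand. Dct held the core alone, 150 bases before its start, and once more on the opposite strand, where it reads CACATG. The core was present in 14.2% of all promoters. No core lay in the window of Tfec or in the 3 of Mitf, and CACGTG, the E-box form of lysosomal genes, lay in none of the 7 windows, against 7.15% of all promoters. A match says that the letters are there, not that they are bound in this tissue.

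One further window is shown for Mitf itself, since the cyclic AMP response element (CRE, searched as TGACGTCA, which is its own reverse complement) is the site through which melanocyte signals are known to raise Mitf. It was found once among the Mitf windows, 153 bases before the start that lies farthest along the gene, and in 1.79% of all promoters.
Mitf, chr6:97991619-97991648, plus strand: gaaaaaaagcaTGACGTCAagccagcaggg
Which Mitf transcripts its probe sets read is not known here, so the array values are not assigned to any of the starts.

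The arrays were alike as a whole. Their median log2 signals lay between 7.74 and 7.91, and any pair correlated at 0.969 or above. Omp, whose promoter drives the transgene, lay between 12.75 and 12.81 in H2be-GF and between 12.83 and 12.96 in WT, so the neuronal marker that defines the tissue was high throughout. The probe set of Hist2h2be, the gene of H2BE, lay between 11.76 and 11.92 in H2be-GF and between 12.00 and 12.13 in WT. There too every H2be-GF array lay below every WT array, which held for 1.6% of the 23194 probe sets tested below. By quantitative PCR, the paper reports that this founder line expresses the transgene far above the endogenous gene. The probe set does not show such a rise, and whether it reads the transgene is not known here. Xist, the RNA of the inactive X chromosome, split the arrays into a set of 5 high arrays (H2be-GF 1 and 2, WT 1, 2 and 3) and a set of 5 low ones. The Y-linked gene Eif2s3y split them into the same sets, at 0.00 on every array high in Xist and between 10.47 and 10.79 on the others. Results below are also given within these sets. In limma, fitted over the 23194 named probe sets whose mean log2 signal exceeded 5, an adjusted p (Benjamini-Hochberg) under 0.05 was taken as a call. All 7 probe sets described here passed that filter.

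Mitf was higher in H2be-GF tissue. On its brighter probe set (10540248, chromosome 6) the log2 signal was 8.40, 8.32, 8.31 and 8.26 on H2be-GF arrays 1 to 4, against 7.84, 7.81, 7.69, 7.70, 7.65 and 7.94 on WT arrays 1 to 6. The genotypes did not overlap, and the lowest H2be-GF array stood 0.32 above the highest WT array. Means were 8.32 ± 0.06 in H2be-GF arrays (SD, n = 4) and 7.77 ± 0.11 in WT arrays (SD, n = 6), a log2 change of 0.55 (SE 0.07) or 1.47-fold. Every H2be-GF array lay above every WT array for 1.29% of the probe sets tested, and this was the difference by which Mitf was chosen.

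The Mitf difference is described again within parts of the arrays. Mitf was chosen by these same values, so this is no further support. The difference was 0.58 in the set high in Xist, with means of 8.36 in H2be-GF and 7.78 in WT. In the other set it was 0.52, with means of 8.28 in H2be-GF and 7.76 in WT. As the genotypes did not overlap over all arrays, they could not overlap in either set. H2be-GF lay above WT within both sets for 2.25% of the probe sets tested. The difference between the sets, 0.06, was not called in limma (adjusted p = 1.00 for the interaction). Each set held 2 H2be-GF and 3 WT arrays, too few for this test to settle whether the sets differ. The call that chose Mitf depended on the arrays and the fit, and it was kept under 15 of 20 alternatives. It was lost without H2be-GF 1, without H2be-GF 3, within either set alone, and when replicate numbers were fitted as a block. It was also lost when the 2 Mitf probe sets were averaged. In the block fit, WT 5 and WT 6 have no H2be-GF array of their number and add nothing to the genotype difference.

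The other Mitf probe set (10540265) was dim and did not separate the genotypes. It read 5.37, 6.46, 5.80 and 5.48 on H2be-GF arrays 1 to 4, against 5.15, 5.48, 5.47, 5.19, 5.65 and 5.45 on WT arrays 1 to 6. Only H2be-GF 2 and H2be-GF 3 exceeded all WT arrays, and H2be-GF 1, the highest array on the brighter probe set, was the lowest of its genotype here. Means were 5.78 ± 0.49 in H2be-GF arrays (SD, n = 4) and 5.40 ± 0.19 in WT arrays (SD, n = 6), a change of 0.38 (SE 0.19, 95% interval -0.03 to 0.79). Without H2be-GF 2 the change was 0.15. After the genotype means were removed, the deviations of the 2 Mitf probe sets correlated at -0.16 over the 10 arrays, a description over arrays that share the same normalization.

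**Figure D1:**
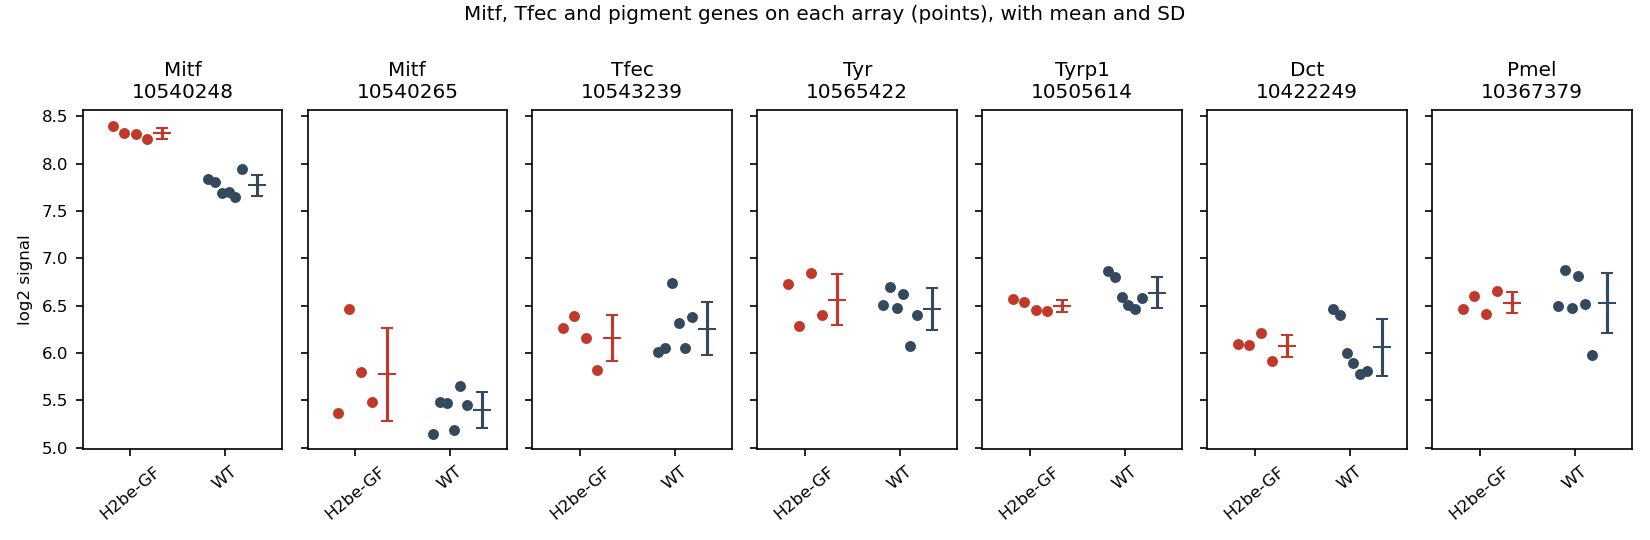
Log2 signal (vertical axis, from 5) of the 7 probe sets of Mitf, Tfec, Tyr, Tyrp1, Dct and Pmel on each of the 4 H2be-GF (red) and 6 WT (dark) arrays, with genotype means and SDs drawn to the right of the points. The genotypes separate on the brighter Mitf probe set, at 8.26 to 8.40 in H2be-GF and 7.65 to 7.94 in WT, and overlap on the other 6.

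Of the 7 probe sets 1, the brighter one of Mitf, was called, where 0.0862% of all probe sets tested were (0.0474% higher and 0.0388% lower in H2be-GF). On 0 of the 7 did every H2be-GF array lie below every WT array, which held for 1.6% of the probe sets tested. Since that call chose the gene, nothing is read from this count. The 5 other genes gave 0 calls in limma, 0 at an unadjusted p under 0.05, and a lowest adjusted p of 0.712. In whole tissue, a lower level of a gene per cell cannot be told apart from fewer cells that express it.

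Tyr codes for tyrosinase, the enzyme that begins melanin synthesis. It read 6.73, 6.28, 6.85 and 6.40 on H2be-GF arrays 1 to 4, against 6.51, 6.70, 6.48, 6.62, 6.07 and 6.40 on WT arrays 1 to 6, with H2be-GF 3 the highest and WT 5 the lowest of all. The change was 0.10 (SE 0.14, 95% interval -0.20 to 0.40, limma adjusted p = 0.893). Among arrays high in Xist the change was -0.06, and among the others 0.26.

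Tyrp1 codes for tyrosinase-related protein, which acts late in the synthesis of the dark pigment eumelanin. It read 6.57, 6.54, 6.45 and 6.44 on H2be-GF arrays 1 to 4, against 6.87, 6.80, 6.59, 6.51, 6.46 and 6.58 on WT arrays 1 to 6. WT 1 and WT 2 were high, and the other 4 WT arrays lay within the range of the H2be-GF arrays or up to 6.59. The change was -0.13 (SE 0.09, 95% interval -0.33 to 0.06, limma adjusted p = 0.712), opposite in sign to that of Mitf. Within each Xist set the H2be-GF arrays lay below all WT arrays, by 0.20 on average in the high set, where means were 6.55 in H2be-GF and 6.75 in WT, and by 0.07 in the low set, where means were 6.45 in H2be-GF and 6.52 in WT. The same held for 2.51% of all probe sets tested.

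Dct codes for dopachrome tautomerase, which acts between tyrosinase and Tyrp1. It read 6.09, 6.08, 6.21 and 5.92 on H2be-GF arrays 1 to 4, against 6.47, 6.40, 6.00, 5.89, 5.78 and 5.81 on WT arrays 1 to 6, so that the H2be-GF arrays fell within the WT range. The change was 0.02 (SE 0.14, 95% interval -0.30 to 0.33, limma adjusted p = 0.987). Among arrays high in Xist the change was -0.20. Among the others it was 0.23, and there both H2be-GF arrays lay above all WT arrays, which held for 10.9% of the probe sets tested. As for Tyrp1, WT 1 and WT 2 were the highest arrays.

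Pmel read 6.47, 6.60, 6.41 and 6.65 on H2be-GF arrays 1 to 4, against 6.50, 6.88, 6.48, 6.81, 6.52 and 5.98 on WT arrays 1 to 6. The H2be-GF arrays again lay within the WT range, of which WT 6 formed the lower end. The change was 0.00 (SE 0.15, 95% interval -0.32 to 0.33, limma adjusted p = 0.997). A further 15 probe sets name Pmel together with Y-linked genes, and they were left out. Their array means were at most 6.17 in the arrays high in Xist and at least 7.31 in the others.

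Tfec, a relative of Mitf that is expressed in macrophages, read 6.26, 6.39, 6.16 and 5.82 on H2be-GF arrays 1 to 4, against 6.01, 6.05, 6.74, 6.32, 6.05 and 6.38 on WT arrays 1 to 6. H2be-GF 4 was the lowest and WT 3 the highest. The change was -0.10 (SE 0.15, 95% interval -0.43 to 0.23, limma adjusted p = 0.903), with values of 0.06 among arrays high in Xist and -0.26 among the others. For none of the 5 genes was the difference between the sets called in limma (interaction adjusted p of 1.00 each). Each set held 2 H2be-GF and 3 WT arrays, too few for this test to settle whether the sets differ.

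The upper bounds of these intervals were 0.40 for Tyr, 0.33 for Dct and Pmel, 0.23 for Tfec and 0.06 for Tyrp1, so rises beyond these bounds lie outside the intervals and smaller ones do not. They are not set against the size of the Mitf difference, which comes from a brighter probe set and chose the genes. The 5 probe sets had a mean signal below 7, above that of 5.7% (Dct) to 13.0% (Tyrp1) of the probe sets tested. No detection call accompanies the values. None of these genes stood at 0 on any array, which does not show that they were detected. Whether pigment cells are present in the tissue was not tested.

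**Figure D2:**
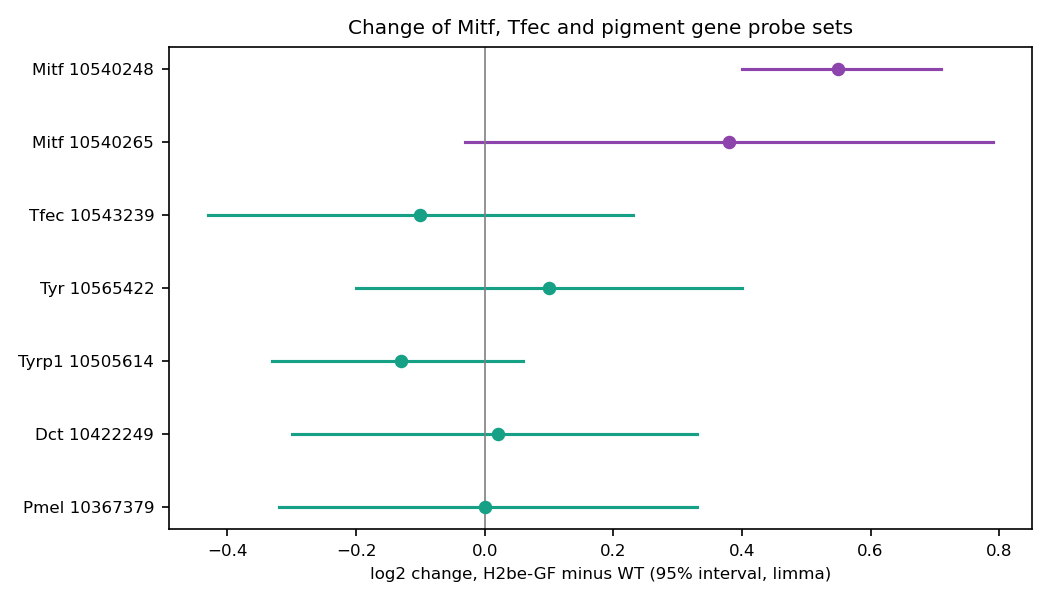
Log2 change (H2be-GF minus WT, horizontal axis) with its 95% interval from limma for the 2 Mitf probe sets (purple) and for Tfec, Tyr, Tyrp1, Dct and Pmel (green). The brighter Mitf probe set lies at 0.55, and the intervals of the 5 other genes include 0 and end at 0.40 or below.

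Whether the pigment genes follow Mitf was also asked within WT tissue, among arrays that the choice of Mitf did not set apart. Over the 6 WT arrays, Pearson's r with the brighter Mitf probe set was 0.55 for Tyrp1 (exact permutation p = 0.267, rho 0.54 with p = 0.297), 0.32 for Dct (exact permutation p = 0.476, rho 0.37 with p = 0.497) and 0.31 for Tyr (exact permutation p = 0.574, rho 0.26 with p = 0.658). It was -0.53 for Pmel (exact permutation p = 0.307, rho -0.31 with p = 0.564) and -0.16 for Tfec (exact permutation p = 0.760, rho -0.03 with p = 1.00). For the other Mitf probe set it was -0.26 (exact permutation p = 0.581, rho -0.60 with p = 0.242). Over these 6 relations the two-sided adjusted p was 0.697 or above for r and 0.790 or above for rho. Each Xist set holds 3 WT arrays, too few for a correlation of its own.

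Single arrays weighed heavily on these relations. Without WT 5 and WT 6, the arrays farthest from the Mitf median, r over the 4 left was 0.97 for Tyrp1, 0.98 for Dct, 0.25 for Tyr, 0.05 for Pmel and -0.88 for Tfec, and -0.20 for the other Mitf probe set. Without WT 6 alone, in which Mitf was highest among WT arrays and Dct among the lowest, r was 0.98 for Tyrp1 and 0.99 for Dct (exact permutation, adjusted p = 0.05 each, over 5 arrays). Without WT 5, r was 0.37 for Tyrp1 and 0.10 for Dct, and for Tyr it turned to -0.40. With 6 arrays the relation of Mitf with either enzyme thus depended on WT 6.

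The deviations of Tyrp1 and Dct from the genotype means correlated at 0.90 over the 10 arrays, against 0.56 for Tyr with Dct, 0.39 for Tyr with Tyrp1, 0.32 for Dct with Pmel and 0.16 for Pmel with either Tyr or Tyrp1. These are descriptions without a test. They depended on WT 1 and WT 2. Without these arrays, r over the 8 left was 0.34 for Tyrp1 with Dct, 0.68 for Tyr with Dct, 0.21 for Tyr with Tyrp1, -0.02 for Dct with Pmel, -0.06 for Tyr with Pmel and -0.42 for Tyrp1 with Pmel. Tfec, at -0.20 with Tyrp1 and -0.24 with Dct over all 10 arrays, was at 0.80 and 0.75 without them. No order among the pairs is therefore read from these values. Deviations of the brighter Mitf probe set correlated at 0.59 with Tyrp1, 0.33 with Dct, 0.31 with Tyr, 0.01 with Tfec and -0.52 with Pmel over the 10 arrays. Without WT 1 and WT 2 it was 0.66 with Tyrp1, -0.03 with Dct, 0.22 with Tyr, 0.26 with Tfec and -0.80 with Pmel.

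**Figure D3:**
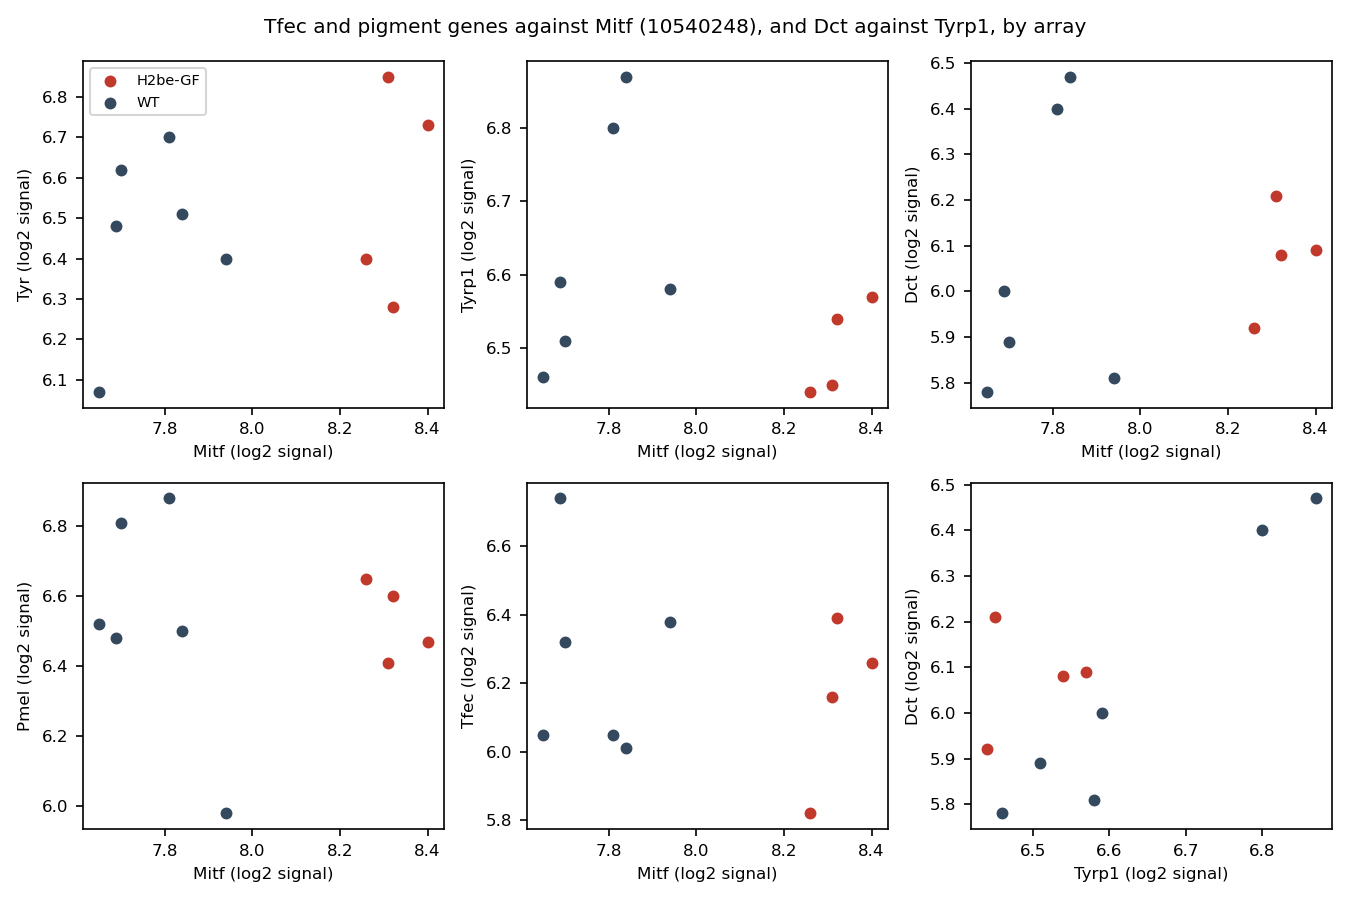
Log2 signal of Tyr, Tyrp1, Dct, Pmel and Tfec (vertical axes) against that of the brighter Mitf probe set (horizontal axes) on each H2be-GF (red) and WT (dark) array, with Dct against Tyrp1 in the last panel. The H2be-GF arrays lie to the right at a Mitf signal of 8.26 or above, which is the difference by which Mitf was chosen. On these arrays the other genes lie in their WT range or close to it. WT 1 and WT 2 form the upper end of the Tyrp1 and Dct panels.

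The genes most like Mitf in these deviations were not pigment genes. Over 21586 probe sets with a single symbol, the highest correlations over the 10 arrays belonged to Gzmf, a granzyme gene, at 0.93, Snx16, a sorting nexin of endosomes, at 0.92, Trerf1 at 0.91, Sdhaf2, an assembly factor of succinate dehydrogenase, at 0.89 and Hint3 at 0.88. Between the genotypes Gzmf differed by 0.38 and Hint3 by -0.12, with limma adjusted p-values of 0.423 and 0.689. The lowest correlations were those of Ccdc17 at -0.94, Scnn1g, a subunit of the epithelial sodium channel, at -0.90, Sulf1 at -0.89, and the ciliary dynein gene Dnah3 and Qrich1 at -0.86 each. With so many probe sets and 10 arrays, values of this size are a ranking and no more.

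The other relatives of Mitf are given by their own values. Tfe3 averaged 8.34 ± 0.14 in H2be-GF arrays (SD, n = 4) and 8.25 ± 0.14 in WT arrays (SD, n = 6), which is a difference of 0.09 (SE 0.09, limma adjusted p = 0.825). Tfeb, which drives lysosomal genes, averaged 7.34 ± 0.23 in H2be-GF arrays (SD, n = 4) and 7.26 ± 0.15 in WT arrays (SD, n = 6), which is a difference of 0.07 (SE 0.11, limma adjusted p = 0.904). With Tfec they make 3 relatives, of which limma called 0, and their changes were not tested against that of Mitf.

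A wider list of melanin and melanosome genes gave no call either. Of 25 genes measured, limma called 0. Unadjusted p-values under 0.05 belonged to 1 higher and 2 lower genes, and the median change was 0.06, against 0.008 over all probe sets tested. Leaving out Tyr, Tyrp1, Dct and Pmel, 15 of 21 were higher and 6 lower, where 52.6% of all probe sets tested were higher. After centring each array on its median 13 of 21 were higher, against 46.3% of all probe sets. When replicate numbers were fitted as a block 11 of 21 were higher, against 45.8% of all probe sets. The smallest p-values were those of Rab27a, the small GTPase that tethers melanosomes and other secretory organelles, at 8.23 ± 0.14 in H2be-GF arrays (SD, n = 4) and 8.44 ± 0.09 in WT arrays (SD, n = 6) (change -0.22, SE 0.08, limma adjusted p = 0.463), and of Gpr143, a melanosomal receptor, at 6.19 ± 0.29 in H2be-GF arrays (SD, n = 4) and 6.45 ± 0.09 in WT arrays (SD, n = 6) (change -0.27, SE 0.11, limma adjusted p = 0.566). The remaining gene at an unadjusted p under 0.05 was Hps5, whose protein is part of a complex needed to build melanosomes, at 8.85 ± 0.15 in H2be-GF arrays (SD, n = 4) and 8.67 ± 0.10 in WT arrays (SD, n = 6), with a change of 0.18 (SE 0.08, limma adjusted p = 0.588).

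Known regulators of the melanocyte lineage were likewise uncalled. Of 14 measured, limma called 0, none had an unadjusted p under 0.05 (0 of 14), and the list had a median change of -0.01. After centring each array on its median, 2 lower genes had an unadjusted p under 0.05. With replicate numbers as a block 1 lower gene did, with a median of -0.07. In that fit 4 of 14 were higher and 10 lower, and 45.8% of all probe sets were higher. Sox10, which activates Mitf in the melanocyte lineage, averaged 8.72 ± 0.16 in H2be-GF arrays (SD, n = 4) and 8.73 ± 0.17 in WT arrays (SD, n = 6). The change was -0.07 for Pax3, 0.05 for the receptor gene Kit and -0.12 for Mc1r, the melanocortin receptor. The smallest p-values belonged to Tfap2a, at -0.31 (SE 0.15, limma adjusted p = 0.607), and Irf4, at -0.41 (SE 0.21, limma adjusted p = 0.641). Sox10 also marks the ensheathing glia of the olfactory nerve, so its level is not a measure of melanocytes alone.

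Most genes known as Mitf targets outside pigmentation were higher in H2be-GF, with 0 called. Of 14 measured, 13 were higher and 1 lower in H2be-GF, where 52.6% of all probe sets tested were higher, and the median change was 0.12. Limma called 0, and unadjusted p-values under 0.05 belonged to 4 higher and 0 lower genes, where 4.35% of all probe sets tested were higher and 4.07% lower at that threshold. The mean log2 signal over the list lay between 8.91 and 9.01 on H2be-GF arrays and between 8.76 and 8.88 on WT arrays. After centring each array on its median, 12 were higher, against 46.3% of all probe sets, with a median of 0.10 and 1 at an unadjusted p under 0.05. The smallest p-values were those of Fnip1, which binds folliculin, at 9.69 ± 0.06 in H2be-GF arrays (SD, n = 4) and 9.52 ± 0.09 in WT arrays (SD, n = 6) (change 0.17, SE 0.07, limma adjusted p = 0.485), and of Cdkn2a, a gene of cell cycle arrest, at 8.40 ± 0.14 in H2be-GF arrays (SD, n = 4) and 8.18 ± 0.15 in WT arrays (SD, n = 6) (change 0.22, SE 0.09, limma adjusted p = 0.551). Also at an unadjusted p under 0.05 were Fnip2, at 0.18 (SE 0.08, limma adjusted p = 0.565), and Birc7. Birc7 was dim, with means of 6.21 in H2be-GF and 5.85 in WT. Its change of 0.37 (SE 0.17, limma adjusted p = 0.587) was the largest of the list. Many genes of this list are used by most cell types, and the part of Mitf in their levels was not tested.

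Lysosomal genes that the relatives of Mitf can drive gave 0 calls among 17 in limma and 0 unadjusted p-values under 0.05, with a median change of 0.05. Uvrag, a gene of autophagy, was at 0.12 (SE 0.06, limma adjusted p = 0.667) and Sgsh, a lysosomal sulfatase gene, at 0.18 (SE 0.11, limma adjusted p = 0.682).

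**Figure D4:**
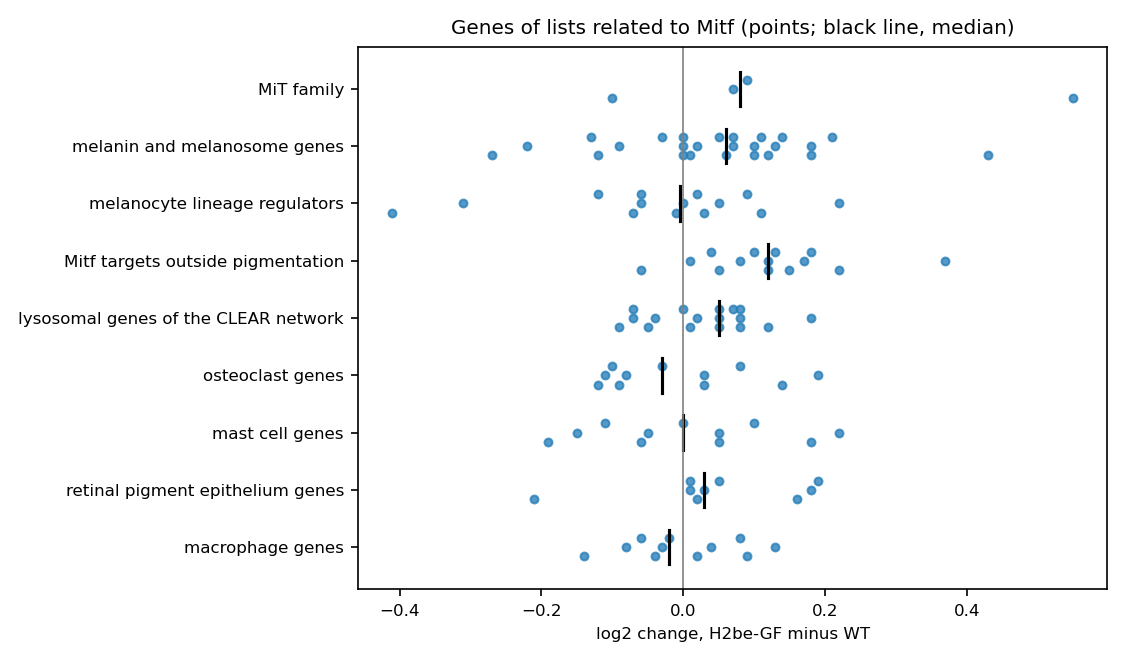
Log2 change (H2be-GF minus WT, horizontal axis) of each gene measured in 9 lists related to Mitf, with the median of each list as a black line. Mitf, which was chosen by this difference, lies at 0.55 in its family. List medians run from -0.03 for osteoclast genes to 0.12 for Mitf targets outside pigmentation.

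The other cell types in which Mitf or Tfec acts were described by their own genes. Limma called 0 of 11 osteoclast genes, 0 of 11 mast cell genes, 0 of 9 genes of the retinal pigment epithelium and 0 of 11 macrophage genes, no list held an unadjusted p under 0.05 (0 genes each), and the medians were -0.03, 0.00, 0.03 and -0.02. In these lists, Ctsk, the collagen-degrading protease of osteoclasts, was at -0.12 (SE 0.06) and Tnfrsf11a at 0.14 (SE 0.09). The mast cell genes Tpsab1 and Fcer1a were at -0.19 (SE 0.13) and -0.15 (SE 0.11), Rpe65 and Ttr at -0.21 (SE 0.13) and 0.19 (SE 0.13), and the macrophage genes C1qc and Mrc1 at 0.13 (SE 0.08) and -0.14 (SE 0.09). No gene of these lists stood at 0 on any array.

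Markers of other cells in the dissected tissue are given beside the Mitf difference, and their part in it was not tested. The mean log2 signal over 12 genes of mature olfactory neurons lay between 11.29 and 11.31 in H2be-GF and between 11.28 and 11.35 in WT. Of these genes 3 were higher and 9 lower, where 47.4% of all probe sets tested were lower, with 0 called in limma. For Omp, Cnga2 and Rtp1 every H2be-GF array lay below every WT array, as for 1.6% of the probe sets tested. The genotypes overlapped for the other genes of the list. At an unadjusted p under 0.05 were 1 higher and 1 lower gene. Kcnk9, a potassium channel gene, was at 0.27 (SE 0.11, limma adjusted p = 0.558) and the cyclic nucleotide-gated channel gene Cnga4 at -0.13 (SE 0.06, limma adjusted p = 0.587). Of 10 genes of progenitors and immature neurons 1 was called, where 0.0862% of all probe sets tested were. This was Lhx2, a homeodomain factor of olfactory neurons, with a change of 0.37 (SE 0.06, limma adjusted p = 0.0425). It averaged 11.46 ± 0.03 in H2be-GF arrays (SD, n = 4) and 11.09 ± 0.06 in WT arrays (SD, n = 6). Its H2be-GF arrays lay above all WT arrays, as for 1.29% of the probe sets tested. The call of Lhx2 was lost under 16 of 21 alternatives, each omission of a single array among them. The list as a whole lay between 10.53 and 10.64 in H2be-GF and between 10.44 and 10.61 in WT.

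Of the remaining lists limma called 0 genes each, with an unadjusted p under 0.05 for Hes1, Krt15, Actn3, Myh1 and Alas2. Over 12 supporting cell and gland genes the mean signal lay between 11.12 and 11.22 in H2be-GF and between 11.12 and 11.28 in WT, with Hes1 at -0.19 (SE 0.07) and Bpifb9b at -0.21 (SE 0.15). Over 6 basal cell genes it lay between 9.03 and 9.12 in H2be-GF and between 9.03 and 9.36 in WT, with Krt15, a keratin gene, at -0.54 (SE 0.14, limma adjusted p = 0.296) and Icam1 at 0.13 (SE 0.07). Over 6 genes of ensheathing glia it lay between 9.12 and 9.22 in H2be-GF and between 9.01 and 9.26 in WT, with Npy at 0.22 (SE 0.14) and Fabp7 at 0.03 (SE 0.06).

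Genes of bone, muscle and blood, whose share in the dissected tissue was not measured otherwise, gave 0 calls in limma. All 8 bone and cartilage genes measured were lower, where 47.4% of all probe sets tested were lower, with a median change of -0.15 (-0.07 with replicate numbers as a block) and 0 at an unadjusted p under 0.05, and their mean signal lay between 9.20 and 9.56 in H2be-GF and between 8.99 and 9.78 in WT. Matn1 was at -0.49 (SE 0.33) and Col2a1 at -0.24 (SE 0.17). Of 10 skeletal muscle genes 7 were lower, against the same 47.4% of all probe sets tested. At an unadjusted p under 0.05 were 2 of them, where 4.07% of all probe sets tested were lower at that threshold. These were Actn3 at -0.34 (SE 0.09, limma adjusted p = 0.297) and Myh1 at -0.29 (SE 0.10). Both measured red cell genes were lower, Alas2 by 0.32 on the log2 scale (SE 0.12, limma adjusted p = 0.480) and Slc4a1 by 0.21 (SE 0.12).

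Few neighbours of Mitf on chromosome 6 could be read. In the order of the RefSeq table, 1 of the 10 nearest genes codes for a protein, Gm765, and only Gm32592, a noncoding RNA gene on the far side of Mitf, had a probe set of its own. It was dim, with a mean of 5.03, and its change was 0.14 (limma adjusted p = 0.904).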

How the data were processed

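Whole MOE of 10 pools of mice was profiled on Affymetrix Mouse Gene ST arrays. The authors checked the scans with arrayQualityMetrics, summarised each probe set with IterPLIER after sketch-quantile normalization in Affymetrix Expression Console, and deposited log2 values. Versions and the genome build are not given in the sources used here. Values ran from 0 to 14.2 over 35556 probe sets, and 95 to 157 per array stood at 0. Dim probe sets read well above 0 but low among those tested, the dimmer Mitf probe set above 1.8% of them. Quantile normalization hides a shift shared by most genes. Names came from the annotation of the platform, which gave 21789 probe sets 1 symbol, updated through Entrez IDs with a RefSeq table of GRCm38.p6 that matched 21698. The test was limma 3.58.1 (two-sided lmFit and eBayes without covariates) under R 4.3.3. Where a listed gene had several probe sets, that of the highest mean was used, with their mean as an alternative. The procedure was tested on simulated data. The number of arrays limits the precision. The members and gene lists were chosen with earlier results of these data known. Named were all members, every called gene of each of 17 lists or otherwise the 2 of smallest p, the 5 nearest genes on each side of Mitf, and the 5 most and 5 least like it. Sox10, Pax3, Kit, Mc1r, Tfe3, Tfeb, Hps5, Fnip2 and Birc7 were named after their values were seen. Alternatives covered array centring, an added constant of 16, the variance model, weighting of arrays, a block on replicate number, the Xist sets (Xist above or below 8), filters at a mean of 7 or none, and leaving out each array. Counts of genes higher per list under other scalings, and the correlation of Tyrp1 with Dct without WT 1 and WT 2, were added after seeing the data. Figures were drawn with matplotlib 3.10.9.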

Additional observations from a re-analysis of the deposited data

How the results depend on the processing

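The brighter Mitf probe set stayed between 0.52 and 0.59 and the dimmer one between 0.15 and 0.55 under all alternatives run. Tfec, Tyr, Tyrp1, Dct and Pmel were uncalled throughout, with a lowest adjusted p of 0.615 in limma, and Tyrp1 stayed negative, between -0.20 and -0.07. The others lie near 0 and changed sign in places. Within the arrays high in Xist the change was 0.06 for Tfec, -0.06 for Tyr, -0.20 for Dct and -0.09 for Pmel. Centring each array on its median gave -0.0036 for Dct and -0.02 for Pmel, the added constant -7.6e-04 and array weights -0.03 for Pmel. When 1 array was left out, changes ranged from -0.18 to 0.01 for Tfec, -0.04 to 0.10 for Dct and -0.11 to 0.07 for Pmel. After centring, r with Mitf in WT was 0.08 for its dimmer probe set, 0.18 for Tfec, 0.16 for Tyr, 0.07 for Dct and -0.88 for Pmel (exact permutation, adjusted p = 0.192 for Pmel). When 1 WT array was left out, r ranged from -0.53 to 0.14 for the dimmer probe set, -0.47 to 0.29 for Tfec, -0.40 to 0.63 for Tyr and -0.76 to 0.25 for Pmel.

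With a block on replicate number the change was 0.56 for Mitf, -0.02 for Tyr, -0.12 for Dct and -0.14 for Pmel. WT 5 and WT 6 add nothing to the genotype difference in that fit, since no H2be-GF array shares their number. Under that block H2be-GF 3, of the set low in Xist, is set against WT 3, of the set high in Xist. The numbers did not pair the arrays: deviations of same-numbered arrays correlated at 0.53, 0.22, -0.42 and 0.26, and 1 of 4 H2be-GF arrays correlated best with the WT array of its number. The count of calls over all probe sets was 20. It was 5 with that block, 114 with a trended robust variance, 36 with a filter at a mean of 7, 0 within either Xist set, and 11 to 19 when 1 array was left out, the lowest without H2be-GF 1, followed by 13 without H2be-GF 3. The causes of these changes were not tested. With a trended robust variance the basal and the blood list gained 1 call each. At a filter of 7 only the brighter Mitf probe set was left. In 14 checks for outliers no array of the 7 probe sets was flagged, with only 4 or 6 arrays per genotype to judge by. H2be-GF 2 still read 6.46 on the dimmer Mitf probe set, against 5.37 to 5.80 on the other H2be-GF arrays. For Pmel, WT 6 read 5.98, against 6.48 to 6.88 on the other WT arrays.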
